A study of Rattus norvegicus with 20 samples.

Results

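The 4 rat mammary carcinomas numbered 1 to 4 were set against 4 normal mammary glands, within a series of 20 arrays with 1 array per tissue sample. They were the 4 of 16 carcinomas with the fewest regions that were low in every normal gland and high in the tumour. For that count, each array was put on a linear scale, called linear position here. It is 0 at the most common ratio of enriched to input DNA over all regions (the low mode), and 1 at the most common ratio among the highest 15% of regions (the high mode). A region counted as gained in a carcinoma when its linear position was under 0.2 in all 4 normal glands and over 0.5 in that carcinoma. Carcinoma 2 had 14 such regions, carcinoma 3 had 67, carcinoma 4 had 122 and carcinoma 1 had 123. The nearest carcinomas outside the choice were number 9 with 173 and number 12 with 180, and the highest count in the other 12 was 1210, in carcinoma 15. These counts chose the tumours, so they are given without a test. The same choice left the carcinomas with larger counts in the other group, so rises in those 12 carcinomas are given as values and calls, without p-values. The questions were which CpG island regions differ from normal gland even in these 4 tumours, and whether the other 12 carcinomas share the difference.

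All tissues came from female rats, F1 offspring of Sprague-Dawley and Copenhagen parents. The labels' protocol lists rats with no treatment and rats that received whole-body gamma rays from caesium, 4 Gy at 0.5 Gy per minute, when they were 7 weeks old. All 16 carcinomas are named as radiation-induced, while the treatment of the rats behind the normal glands could not be learned from the sources at hand, so irradiation and tumour growth cannot be told apart. The samples are numbered without naming animals, so the spread between arrays may be partly technical. The arrays name no genes, so the tissue labels could not be checked against marker genes and regions are given by their coordinates in build rn4.

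DNA methylation in mammals is the addition of a methyl group to cytosine, mostly where a guanine follows (CpG). CpG islands are short stretches dense in CpG, often at gene starts. Most are unmethylated in normal tissue, apart from those on the inactive X chromosome, at imprinted genes and at some germline genes, and tumours often gain methylation at islands that were free of it. On these arrays, DNA captured with a methyl-CpG-binding domain protein carried Cy5 and unselected input DNA of the same tissue carried Cy3. Where many CpG of a region are methylated, the log2 ratio of Cy5 to Cy3 is high. In bulk tissue, a change in the mix of cells and a change within cells cannot be told apart.

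After filtering, 91599 probes made up 13556 regions of 3 or more probes close together, and the typical region had 6 probes over 579 bases (medians). The median raw Cy3 (input) signal was between 73 and 100 units on carcinomas 1 to 4, against 104 to 136 on the normal glands, and between 91.5% and 96.3% of probes had input well above background, against 98.6% to 98.8%. Carcinomas 1 and 2 were scanned on a day, and hybridised on a slide, with no other array. Carcinoma 3 shared its scan day with normal glands 1 and 4, and carcinoma 4 with normal glands 2 and 3. Over all regions, pairs of normal glands correlated at 0.966 to 0.987, pairs among carcinomas 1 to 4 at 0.897 to 0.958, and these carcinomas with the normal glands at 0.853 to 0.938. With 4 arrays a group, precision is limited by their number.

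Across the genome, regions with high methyl-CpG enrichment in normal gland had lower log2 ratios in carcinomas 1 to 4, and the median of regions low in normal gland stayed near the normal level. In the 1019 regions whose mean linear position in normal glands was over 0.8, the median difference from the mean of the normal glands was -1.50 in carcinoma 1, -1.52 in carcinoma 2, -1.82 in carcinoma 3 and -1.93 in carcinoma 4. The normal glands themselves lay at 1.53, -1.02, -0.09 and -0.43 in these regions, each set against the mean of the other normal glands. Leaving the gland itself out of its baseline widens the spread of these values. All 4 carcinomas were thus below every normal gland, but by less than the normal glands differed from each other. In the 600 regions between 0.2 and 0.5 the median log2 difference was -0.86, -1.04, -1.52 and -1.29 in the 4 carcinomas. In linear position the median differences of these 600 regions were 0.145, 0.085, 0.013 and 0.122, so their fall did not appear on that scale. In the regions over 0.8 the linear differences were -0.038, -0.055, -0.051 and -0.064. In the 11305 regions under 0.2 the median log2 difference was at most 0.12, with 1411 of them called higher and 969 lower by the rule given next.

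**Figure D1:**
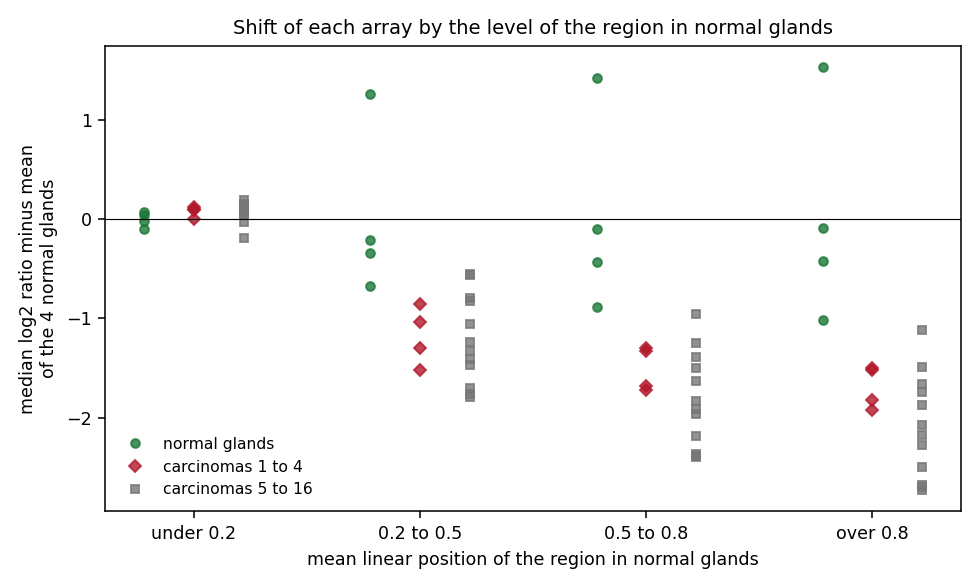
Median difference in log2 ratio from the mean of the 4 normal glands (vertical axis) on each array, for regions grouped by their mean linear position in normal glands (horizontal axis). Each point is 1 array, and a normal gland is set against the mean of the other normal glands, which widens their spread. Above a normal position of 0.2 all 4 carcinomas lie below every normal gland, and the spread of the normal glands, led by normal gland 1, grows with the level.

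With limma and a Benjamini-Hochberg adjusted p under 0.05 as the rule for listing regions, 2975 regions (21.9 percent of those tested) were lower and 1411 (10.4 percent) were higher in carcinomas 1 to 4 than in normal glands. Of the lower regions, 1626 had a mean linear position over 0.5 in normal glands, and 329 of the 338 regions on the X chromosome were among them. Every one of the 1411 higher regions was under 0.2 in all 4 normal glands. The median difference was -1.50 in the lower and 0.69 in the higher regions. In 2993 regions (22.1 percent) all 4 carcinomas lay below all normal glands, and in 1713 (12.6 percent) above them.

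The other 12 carcinomas had 3135 lower (23.1 percent) and 1583 higher regions (11.7 percent) in the same fit, which uses the same 4 normal glands. Both groups had 2751 lower regions in common, which is 92.5% of the list from carcinomas 1 to 4 and 87.8% of the other list. They had 680 higher regions in common, 48.2% of the first list and 43.0% of the second. No region was called in opposite directions.

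The balance of falls and rises depended on the scale of the values. Lower calls made up 67.8% of all calls on the log2 scale and 63.7% with dim Cy5 signals raised to a floor (26.3 percent of regions lower and 15.0 percent higher). They made up 53.2% after quantile normalization (9.03 and 7.94 percent) and 91.6% after normexp background correction (22.1 and 2.04 percent). They made up 38.7% on linear position (219 lower, 1.62 percent, and 347 higher, 2.56 percent) and 27.5% after loess (789 lower, 5.82 percent, and 2078 higher, 15.3 percent). The high mode stood at 3.91 to 5.84 log2 units on the normal glands and at 2.84 to 3.24 on carcinomas 1 to 4. On the X chromosome, the mean log2 ratio was 3.12 to 4.83 in normal glands and 2.07 to 2.45 in the 4 carcinomas, while the mean linear position was 0.548 to 0.589 and 0.552 to 0.578 in turn, so that on the linear scale the groups overlapped. The count of higher regions fell to 903 without normal gland 1, to 611 without carcinomas 1 and 2, and to 622 with scan day as a block. Without normal gland 1, 348 regions were called higher in both groups, and the higher calls in the other 12 carcinomas fell to 1046 without normal gland 3.

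A short list of regions was lower whichever scale was used. On all 6 scales, 18 regions (0.133 percent) were lower and 4 (0.0295 percent) were higher in carcinomas 1 to 4. All 18 lower regions were also lower in the other 12 carcinomas on the log2 scale (23.1 percent of all regions). In 17 of them all 12 were below every normal gland (16.3 percent of all regions). On all 6 scales, 16 of the 18 were lower in the other 12 carcinomas too, where 63 regions were (0.465 percent). These regions span 210 to 768 bases and 4 to 10 probes. In normal gland 11 of them had a mean linear position over 0.2, and 4 were over 0.5. In 16 of them all 4 carcinomas were under 0.2. All 18 were picked against the same 4 normal glands that the other 12 carcinomas are compared with. The adjusted p-values given below for those 12 are therefore not independent of the choice.

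The fall was deepest on chromosome 2, from 175940970 to 175941737. The log2 ratio of this region was 5.39, 3.33, 4.26 and 4.48 in normal glands 1 to 4, and 0.57, 0.35, 0.98 and 0.36 in carcinomas 1 to 4. In the other 12 carcinomas it ran from -0.94 to 1.22 with a median of 0.14. No carcinoma reached the lowest normal gland. The difference was -3.80 ± 0.42 (SE) for carcinomas 1 to 4 and -4.10 ± 0.34 (SE) for the other 12 (limma, adjusted p = 2.59e-07). In linear position the region went from 0.731, 0.652, 0.776 and 1.08 in the normal glands to 0.0859, 0.0571, 0.168 and 0.0890 in the 4 carcinomas, with a median of 0.0563 in the other 12. It was the single region over 0.5 in all normal glands and under 0.2 in all 4 of these carcinomas. Input signal at this region differed from normal gland by -0.34 on the log2 scale, and its part in the fall was not tested.

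On chromosome 18, from 71365517 to 71366000, the log2 ratio was 4.93, 3.12, 3.84 and 4.17 in the normal glands and 0.81, 0.60, 1.89 and 0.12 in carcinomas 1 to 4, and it lay between -0.04 and 1.56 (median 0.39) in the other 12. All carcinomas were below all normal glands, with carcinoma 3 highest among them. The differences were -3.16 ± 0.39 (SE) for the 4 and -3.42 ± 0.31 (SE) for the 12 (limma, adjusted p = 6.24e-07). On chromosome 20, from 19290912 to 19291405, the ratio went from 4.79, 3.24, 3.87 and 3.90 to 0.20, 0.76, 1.10 and 0.15, with 0.09 to 1.46 (median 0.42) in the other 12. The groups did not overlap on the log2 scale. Here the differences were -3.40 ± 0.34 (SE) and -3.32 ± 0.28 (SE) (limma, adjusted p = 2.59e-07). In linear position, though, 1 of the other 12 carcinomas was over 0.5, at 0.610, within the normal range of 0.477 to 0.712.

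A region of partial enrichment on chromosome 1, from 187510308 to 187510888, fell to the low mode. Its linear position was 0.216, 0.321, 0.325 and 0.488 in the normal glands and -0.00443, -0.00458, 0.0795 and -0.0245 in carcinomas 1 to 4, and the other 12 reached at most 0.139. All 16 carcinomas were below the lowest normal gland. The log2 differences were -3.48 ± 0.31 (SE) for the 4 and -3.34 ± 0.25 (SE) for the 12 (limma, adjusted p = 1.06e-07). Chromosome 1 held 3 more of the 18 regions. From 82409664 to 82410131, linear position was 0.186 to 0.209 in the normal glands and -0.00580 to 0.0305 in the 4 carcinomas. The regions from 78309465 to 78310142 and from 79107894 to 79108105 had log2 differences of -2.42 ± 0.32 (SE) and -2.52 ± 0.31 (SE).

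Both regions of the 18 on chromosome 16 fell by like amounts. From 18541589 to 18542185 the log2 ratio was 3.45, 1.98, 1.91 and 3.36 in the normal glands and -0.03, -0.09, 0.42 and -0.45 in carcinomas 1 to 4. From 18673885 to 18674550 it was 4.25, 2.53, 2.93 and 3.75 against 0.77, 0.40, 0.92 and 0.39. No carcinoma of either group was within the range of the normal glands on the log2 scale. In linear position the other 12 reached 0.222 and 0.352, inside the normal ranges of 0.126 to 0.479 and 0.289 to 0.641. The falls were -2.71 ± 0.34 (SE) and -2.75 ± 0.28 (SE), beside -2.72 ± 0.28 (SE) and -2.65 ± 0.23 (SE) in the other 12 (limma, adjusted p = 1.85e-06 and 3.13e-07).

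The region on chromosome 14 from 7327721 to 7328068 stood apart from the rest of the 18, since it stayed high. Its linear position was 0.823, 1.04, 1.06 and 0.918 in the normal glands and 0.722, 0.645, 0.753 and 0.607 in carcinomas 1 to 4, while the other 12 carcinomas were at 0.865 to 1.08 with a median of 1.03. On this scale the 4 carcinomas lay below both the normal glands and the other carcinomas, whose ranges overlapped. On the log2 scale the 4 were at 2.21 to 2.80, within the range of 1.95 to 3.49 of the other 12. The log2 differences from normal gland were alike, -2.05 for the 4 and -2.02 for the other 12. On linear position the difference of the other 12 was 0.0354 (limma, adjusted p = 0.549). Input signal at this region differed from normal gland by -1.61 on the log2 scale in carcinomas 1 to 4 and by -0.49 in the other 12, and its part in the ratio was not tested. The only other region of the 18 not called on all scales in the other 12 carcinomas was the first of the chromosome 1 regions given above, at 78309465.

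The remaining 8 regions were on chromosomes 3, 5, 7, 8, 14 and 17. The fall on chromosome 14 from 85720722 to 85721101 was -3.05 ± 0.36 (SE), and the one on chromosome 8 from 127988237 to 127988758 was -2.68 ± 0.30 (SE). On chromosome 3, the region from 75475088 to 75475297 fell by 2.67 on the log2 scale. The smallest falls were in regions already at the low mode in normal gland, -0.76 ± 0.13 (SE) on chromosome 7 from 20644295 to 20644674 and -0.61 ± 0.18 (SE) on chromosome 3 from 126382298 to 126382543, where 11 of the other 12 carcinomas were below all normal glands.

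**Figure D2:**
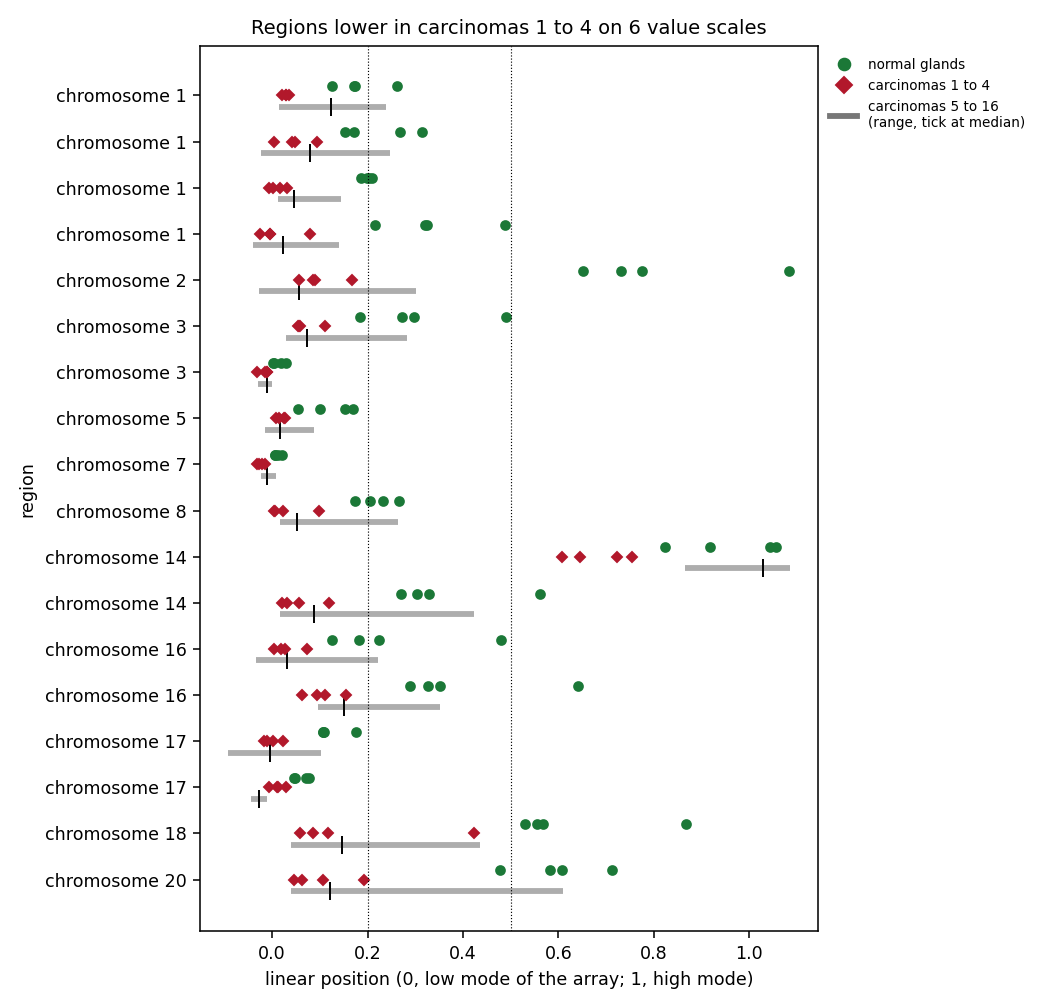
Linear position (horizontal axis) of the 18 regions lower in carcinomas 1 to 4 on 6 scales, ordered by chromosome; circles are the 4 normal glands, diamonds carcinomas 1 to 4, and bars the range of the other 12 carcinomas with a tick at the median. In each region the 4 carcinomas lie below the 4 normal glands, and in all but the upper of the 2 chromosome 14 regions the median of the other 12 lies below them too.

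The list of 18 was sensitive to single arrays. Leaving out normal glands 1 to 4 and carcinomas 1 to 4 in turn gave between 7 and 25 lower and between 0 and 22 higher regions. Without normal gland 2, normal gland 4 or carcinoma 1 there were 7 lower regions, all on the list of 18. Of 7 without carcinoma 4, 6 were on the list, as were 8 of 9 without carcinoma 2, 11 of 13 without normal gland 1, all 12 without normal gland 3 and 16 of 25 without carcinoma 3. Of the higher regions, 1 of 22 without carcinoma 2, 0 of 5 without carcinoma 3 and 0 of 1 without normal gland 1 were among the 4. Without normal gland 3 there were 0, without normal gland 2 there were 2, and without normal gland 4, carcinoma 1 or carcinoma 4 there was 1 each, all of these among the 4. With scan day as a block 6 lower and 16 higher regions were found, of which 3 and 0 were on the lists above, and without carcinomas 1 and 2 there were 7 and 19, with 3 and 0 shared.

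Ranked by size alone, the 10 largest falls among regions where all 4 carcinomas were below all normal glands ran from -3.80 to -3.08. All 10 were lower in the other 12 carcinomas as well, as were 23.1 percent of all regions and 92.5% of the regions lower in carcinomas 1 to 4. In all 10, the 12 carcinomas were below every normal gland (16.3 percent of all regions). The 10 regions were picked against the same 4 normal glands. Besides the 4 regions already described they were on chromosomes 3, 5, 6, 7 and 9. On chromosome 7 from 67041591 to 67042838, the longest of them with 15 probes, the log2 ratio was 4.47, 2.57, 2.92 and 3.89 in normal glands and 0.27, 0.10, 0.82 and -0.41 in carcinomas 1 to 4. The fall was -3.27 ± 0.37 (SE), beside -3.15 ± 0.30 (SE) in the other 12 (limma, adjusted p = 8.74e-07). The region was picked against the same normal glands, so this p-value is not independent of the choice. The 4 tumours and the normal glands did not overlap. Also on chromosome 7, the region from 114746998 to 114747515 fell by 3.42 on the log2 scale.

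A fall on the log2 scale did not always mean that a region had reached the low mode. On chromosome 5 from 22709432 to 22709726, linear position was 1.16 to 1.37 in normal glands, 0.876 and 0.907 in carcinomas 1 and 2, and 0.211 and 0.0824 in carcinomas 3 and 4. The other 12 carcinomas were all over 0.5, with a median of 1.07. The low values were in 2 of the 4 tumours, and the lowest of the other 12 was 0.698. This region and the ones on chromosome 3 from 147120104 to 147120567 and chromosome 9 from 8528821 to 8529154 had loess differences of 0.05, -0.34 and 0.02, against log2 differences of -3.10, -3.36 and -3.08. Over the 10 regions, loess called 4 (5.82 percent of all regions were lower under it), linear position 9 (1.62 percent) and normexp 10 (22.1 percent).

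The 10 largest rises, among regions where all 4 carcinomas were above all normal glands and enriched signal was measurable in normal gland, ran from 1.63 to 2.27. All 10 were also called higher in the other 12 carcinomas (11.7 percent of all regions). In 6 of them every one of the 12 was above every normal gland (3.25 percent of all regions). On chromosome 5 from 142598928 to 142599126 the log2 ratio was -1.53, -0.42, -0.93 and -1.59 in normal glands and 1.48, 1.56, 0.26 and 1.30 in carcinomas 1 to 4, with -0.02 to 1.20 in the other 12. Both carcinoma groups lay above the normal glands. The difference was 2.27 ± 0.30 (SE) for the 4 and 1.87 ± 0.25 (SE) for the 12. In linear position the 4 carcinomas reached only 0.0532 to 0.273, so this rise stayed near the low mode.

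On chromosome 3 from 91133568 to 91134109, the ratio went from -0.55, -0.16, -0.11 and -1.70 to 1.81, 1.09, 0.82 and 1.33, and was 0.91 to 2.80 in the other 12. Carcinoma 1 was the highest of the 4, and none overlapped the normal glands. The difference was 1.89 ± 0.37 (SE) for the 4 and 2.27 ± 0.30 (SE) for the 12. On chromosome 10 from 18097053 to 18097347, carcinoma 1 reached 2.68 and the other 3 of the 4 were at 1.15 to 1.58, above a normal range of -0.44 to 0.55. In linear position this region was over 0.5 in carcinoma 1 and in 11 of the other 12. The other 7 rises were on chromosomes 1, 5, 16 and 20. At 2 of them, on chromosome 1 from 130034230 and on chromosome 16 from 86143179, enriched signal was well above background at 1 of 3 probes in carcinomas 1 to 4, so no size is given, and the other 5 were of 1.63 to 1.74. Of these 5, 2, on chromosomes 1 and 5, were also gained in 3 of the 4 tumours and are described with the gains.

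Input signal moved with these rises. At the 10 regions, the difference in log2 Cy3 signal between carcinomas 1 to 4 and normal glands ran from -2.05 to -0.02, with a median of -0.67, while at the 10 largest falls the median input difference was 0.08. Of the 10 rises, limma called 0 under normexp, with 7 at an unadjusted p under 0.05, where 2.04 percent of all regions were higher. It called 3 on linear position (2.56 percent) and 8 under loess (15.3 percent). The part of the input signal in the rises was not tested.

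The 4 regions higher on all 6 scales were all close to the low mode, with every position under 0.2 in carcinomas 1 to 4. On chromosome 3 from 120453460 to 120453853 the log2 ratio was -1.04, -0.49, -0.70 and -0.90 in normal glands and 0.47, 0.89, 0.33 and 0.55 in carcinomas 1 to 4, a difference of 1.35 ± 0.20 (SE), with -0.54 to 0.44 in the other 12. The 4 carcinomas were above every normal gland, and 10 of the other 12 were. On chromosome 13 a region from 49512198 to 49512944 was higher by 1.29 ± 0.17 (SE), and one on chromosome 10 from 74586251 to 74586862 by 0.56 ± 0.13 (SE). In the other 12 carcinomas the differences of these 2 regions were 1.02 ± 0.14 (SE) and 0.20 ± 0.11 (SE). All 12 were above every normal gland in the first and 6 of them in the second. Of the 4 regions, 3 were called higher in the other 12 on the log2 scale (11.7 percent of all regions). For the region on chromosome 9 from 33573759 to 33574061, enriched signal was not well above background at 2 of 3 probes in the normal glands and at all 3 in these carcinomas, so no size is given. At the 4 regions, input signal in carcinomas 1 to 4 differed from normal gland by -1.51 to -0.42 on the log2 scale, with a median of -0.51. Its part in the rises was not tested.

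Gains, as counted by linear position, were few in these tumours but mostly fell on islands that other carcinomas gained as well. Of 11031 regions under 0.2 in every normal gland, 249 (2.26 percent) were over 0.5 in at least 1 of carcinomas 1 to 4, 63 (0.571 percent) in at least 2, 13 (0.118 percent) in at least 3 and 1 (0.00907 percent) in all 4. Regions gained in at least 1 of the 4 were over 0.5 in a median of 7 of the other 12 carcinomas, those gained in at least 2 in a median of 10, and those gained in at least 3 in a median of 11. Over all regions low in normal gland the median was 0. The other 12 were the carcinomas with larger counts, so these medians are a description. The 249 regions also started higher, at a median linear position of 0.0783 in normal gland, against 0.00375 over all 11031. On the log2 scale, 29 of the 249 were called higher in carcinomas 1 to 4 and 0 lower. Over all 11031 regions, 1411 were called higher and 894 lower.

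**Figure D3:**
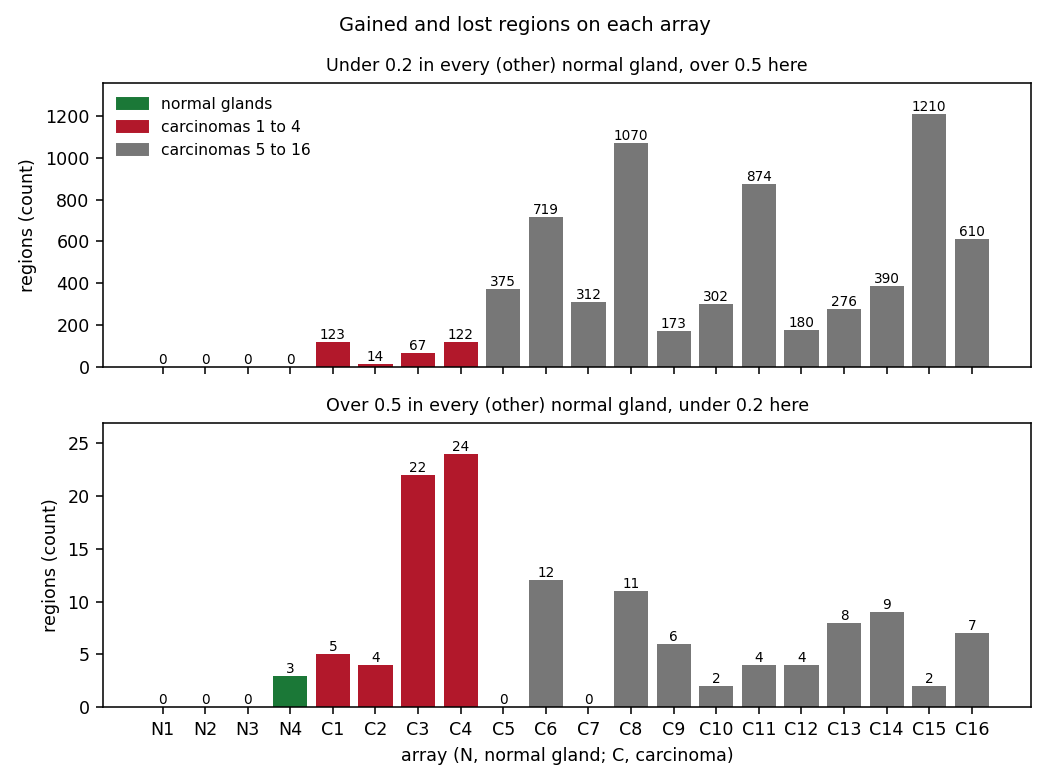
Number of regions on each array that were under 0.2 in every normal gland and over 0.5 on that array (upper panel) and the reverse (lower panel); for a normal gland the other normal glands set the level. Gains run from 14 to 123 in carcinomas 1 to 4 and from 173 to 1210 in the rest, and losses are highest in carcinomas 3 and 4, at 22 and 24.

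**Figure D4:**
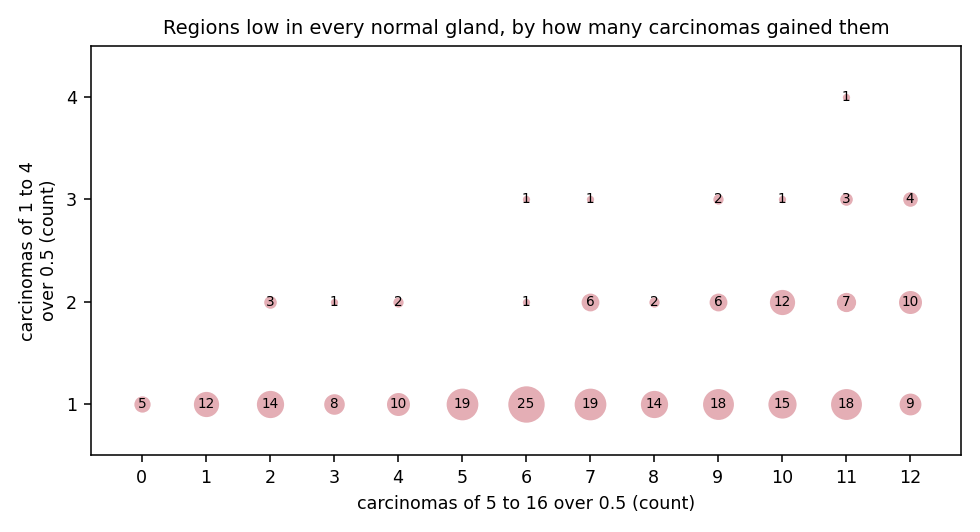
Regions low in every normal gland and gained in at least 1 of carcinomas 1 to 4, by how many of these 4 (vertical axis) and of the other 12 carcinomas (horizontal axis) were over 0.5; circle area and number give the count of regions. Regions gained in 1 of the 4 spread over 0 to 12 others, while those gained in 3 or 4 have 6 or more.

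The gains of the 4 tumours overlapped unevenly. Carcinomas 3 and 4 had 37 gained regions in common, 55.2% of those of carcinoma 3 and 30.3% of those of carcinoma 4. Carcinomas 1 and 2 had 8 in common, 57.1% of the 14 of carcinoma 2 and 6.5% of those of carcinoma 1. Carcinomas 1 and 3 shared 15, which was 12.2% and 22.4% of their lists. The counts depended on normal gland 2: without it they rose to 192 in carcinoma 1, 39 in carcinoma 2 and 200 in carcinoma 4.

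The only region gained in all 4 was on chromosome 8 from 112798634 to 112799258, with 8 probes. Its linear position was 0.108, 0.151, 0.0879 and 0.0455 in normal glands and 0.869, 0.641, 0.882 and 0.761 in carcinomas 1 to 4, and 11 of the other 12 were over 0.5, with a range of 0.452 to 0.933. All 16 carcinomas were above the normal glands on this scale. On the log2 scale normal gland 1, at 2.75, lay within the range of 2.49 to 3.04 of the 4 carcinomas, and the difference was 1.11 ± 0.37 (SE) for these carcinomas and 0.61 ± 0.30 (SE), short of the threshold, for the other 12.

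Of the 13 regions gained in at least 3 of the 4, carcinoma 1 was over 0.5 in 12, carcinomas 3 and 4 in 11 each and carcinoma 2 in 6. In all 13, the lowest of the other 12 carcinomas was above the highest normal gland on linear position. The other 12 were the carcinomas with larger counts on that scale, so this is a description. On the log2 scale all 12 were above every normal gland in 4 of the 13 (3.25 percent of all regions). The 12 were called higher in 7 of the 13 (11.7 percent of all regions). Carcinomas 1 to 4 were all above the normal glands on the log2 scale in 5 of the 13 (12.6 percent of all regions). On chromosome 1 from 191121021 to 191121251, linear position was 0.0117 to 0.12 in normal glands and 0.526, 0.297, 0.799 and 0.992 in carcinomas 1 to 4, and all 12 others were over 0.5, up to 1.26. Carcinoma 2 was the lowest of the 16. The log2 difference was 1.71 ± 0.40 (SE) in the 4 and 1.71 ± 0.33 (SE) in the 12. The next region on the same chromosome, from 191125406 to 191125988 and 4155 bases away, was over 0.5 in carcinomas 3 and 4 and in 11 of the other 12.

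On chromosome 5 a pair of regions 5555 bases apart was gained in the same tumours, carcinomas 1, 3 and 4. From 120330924 to 120331903 linear position was 0.502, 0.184, 0.538 and 0.580 in carcinomas 1 to 4 and at most 0.0845 in normal glands. From 120337458 to 120337826 it was 0.589, 0.309, 0.569 and 0.688, with at most 0.113 in normal glands. Carcinoma 2 was lowest at both. Of the other 12 carcinomas 9 and 10 were over 0.5. Chromosome 5 held 9 of the 63 regions gained in at least 2 of the 4 (14.3%), this pair among them, and 7.24% of all regions low in normal gland. It was the chromosome with the most of the 63, and its share was not tested. Of the 249 regions gained in at least 1 of the 4 it held 16, and of all 11031 low regions 799. On chromosome 18 from 60539798 to 60540269, carcinomas 2, 3 and 4 were at 0.639, 0.586 and 0.686 and carcinoma 1 at 0.368, above a normal range of 0.0173 to 0.132.

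Carcinoma 3 was left out of the gains on chromosome 7 from 139829797 to 139830027 and chromosome 9 from 92453435 to 92453882. Its linear position there was 0.0227 and 0.213. Carcinomas 1, 2 and 4 were at 0.787, 0.536 and 0.635 in the first and at 0.788, 0.607 and 0.646 in the second. The first was over 0.5 in 6 of the other 12 carcinomas and the second in 11.

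**Figure D5:**
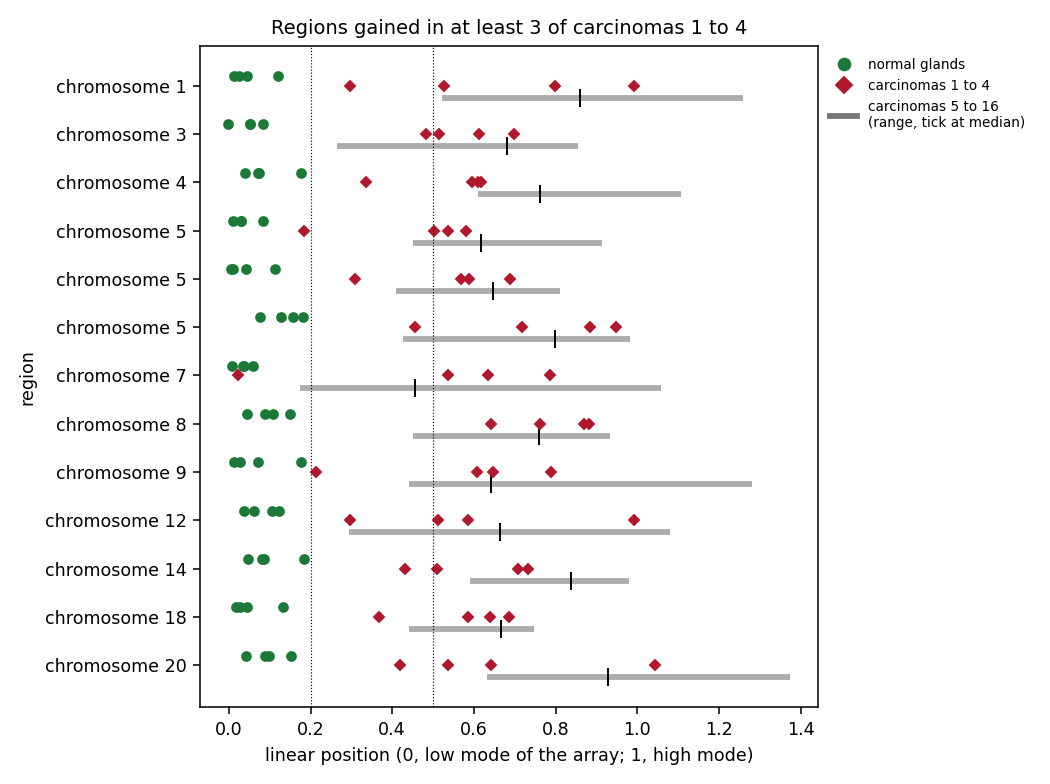
Linear position (horizontal axis) of the 13 regions gained in at least 3 of carcinomas 1 to 4, ordered by chromosome; circles are the 4 normal glands, diamonds carcinomas 1 to 4, and bars the range of the other 12 carcinomas with a tick at the median. The normal glands are all under 0.2, and in each region the whole bar lies to the right of them.

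The strongest gains of each tumour on linear position were shared with the other 3 to different degrees. The highest positions reached in carcinoma 1 were 1.20 on chromosome 10 from 90293629 to 90294050, 1.18 on chromosome 9 from 42152104 to 42152253 and 1.04 on chromosome 20 from 29547177 to 29547684. In the first of these, carcinoma 2 was over 0.5 as well, at 0.599, and carcinomas 3 and 4 were at 0.0687 and 0.255. On the log2 scale carcinoma 1 was at 3.47 in this region and normal gland 1 at 3.22, with the other normal glands at 0.82 to 1.72. The log2 difference over carcinomas 1 to 4 was 0.13 ± 0.76 (SE). The one on chromosome 20 is among the 13 regions gained in at least 3 of the 4. In carcinoma 2 the highest was 0.70 on chromosome 3 from 53839948 to 53840429, where 10 of the other 12 carcinomas were over 0.5. Carcinoma 3 reached 1.16 on chromosome 18 from 28953834 to 28954644, where carcinoma 4 was at 0.846, carcinomas 1 and 2 were at 0.184 and 0.145, and 2 of the other 12 were over 0.5. It also reached 1.06 on chromosome 18 from 56545797 to 56546050, where carcinomas 1, 2 and 4 were at 0.251, 0.330 and 0.225. Carcinomas 3 and 4 were also both high, at 0.974 and 0.950, on chromosome 1 from 265997139 to 265997868. On the log2 scale they were at 2.90 and 2.77 there. Normal gland 1 was at 2.69 and the other normal glands at 1.34 to 1.76. The log2 difference over carcinomas 1 to 4 was 0.30 ± 0.45 (SE).

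In carcinoma 4, regions close together on chromosome 9 lay at opposite ends of the scale. From 8523926 to 8524372 its linear position was 1.03, against 0.0624 to 0.118 in normal glands. From 8528821 to 8529154 it was 0.0559, against 0.426 to 0.986 in normal glands. The other 3 of these carcinomas were at 0.387, 0.114 and 0.0476 in the first region and at 0.135, 0.0718 and 0.454 in the second.

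Of the 249 gained regions, 5 were over 0.5 in none of the other 12 carcinomas, beside 9292 of all 11031 regions low in normal gland. The other 12 were the carcinomas with larger counts, so this is a description. Each of the 5 regions was gained in 1 of the 4. They were on chromosome 1 from 56497442 to 56497839 (0.950 in carcinoma 3) and chromosome 10 from 85035044 to 85036219 (0.595 in carcinoma 3), on chromosome 16 from 71241298 to 71242500 (0.536 in carcinoma 4) and chromosome 17 from 30024472 to 30025208 (0.544 in carcinoma 4), and on chromosome 7 from 123729817 to 123730157 (0.507 in carcinoma 1). In the first of them the highest of the other 12 was 0.349. In the rest the tumour was within 0.1 of the limit of 0.5.

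Losses, the reverse of gains, were spread differently. Of 1455 regions over 0.5 in every normal gland, 40 (2.75 percent) were under 0.2 in at least 1 of carcinomas 1 to 4, 5 in carcinoma 1, 4 in carcinoma 2, 22 in carcinoma 3 and 24 in carcinoma 4. The other 12 carcinomas had 0 to 12. Of the 40 regions, 26 were lost in none of the other 12, beside 1435 of all 1455 (98.6%), and 12 were lost in at least 2 of the 4. All 40 were called lower on the log2 scale in both carcinoma groups, as were 1448 of the 1455 (99.5%).

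In the 12 regions lost in at least 2 of the 4, carcinoma 4 was under 0.2 in 12, carcinoma 3 in 9, and carcinomas 1 and 2 in 3 each, while carcinoma 1 was over 0.5 in 7. On chromosome 19 from 49889750 to 49890232, linear position was 0.623 to 0.797 in normal glands, 0.735 and 0.816 in carcinomas 1 and 2, and 0.195 and 0.109 in carcinomas 3 and 4, while all 12 others were over 0.5. On chromosome 8 from 109354254 to 109354486 the 4 carcinomas were at 0.715, 0.533, 0.104 and 0.113. Carcinomas 3 and 4 were low and carcinomas 1 and 2 at or near the normal range in both. Carcinomas 1 and 2 differ from the other pair in scan day and slide as well, which cannot be told apart from a difference between the tumours.

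On the log2 scale, 731 higher and 224 lower regions were called in carcinomas 1 to 4 and not in the other 12, which does not show that the groups differ. Their median differences were 0.63 and -0.55 in the 4 (up to 2.05 and down to -2.15) and 0.25 and -0.28 in the 12. In the regions called in both groups the medians in the 4 were 0.80 and -1.53. Among the rises with all 4 carcinomas above all normal glands, the 5 with the least change in the other 12 had differences of 0.42 to 0.61 in the 4 and of -0.14 to -0.10 in the 12. Among the falls, the 5 least shared had differences of -1.18 to -0.34 in the 4 and -0.08 to 0.14 in the 12. Both sets were picked for their small change in the 12, so these values are a description. All 5 rises stayed under 0.2 in linear position, and the input difference at them ran from -0.86 to -0.04 on the log2 scale. Under loess, 4 of the 5 rises had a difference between -0.06 and 0.10, the direction being reversed in 3.

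The largest falls of this kind were on chromosome 9 from 41874301 to 41874738 and chromosome 7 from 141685348 to 141686100. In the first, the log2 ratio was 3.14, 2.09, 2.16 and 1.72 in normal glands, 0.87, 1.51, 0.82 and 1.19 in carcinomas 1 to 4 and 1.06 to 3.36 in the other 12. In the second it was 2.64, 1.41, 1.31 and 1.61, then 1.01, 0.38, 0.31 and 0.84, with 0.91 to 3.13 in the other 12. The other carcinomas spanned the normal range and went beyond it. In linear position the 4 carcinomas were at 0.125 to 0.244 and 0.0583 to 0.169, within or close to the normal ranges of 0.128 to 0.247 and 0.0725 to 0.134, so the falls in these regions did not appear on that scale, while 9 and 6 of the other 12 were over 0.5.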

How the data were processed

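The carcinomas and region lists were chosen with earlier results of these data known. Per the file headers, Agilent Feature Extraction 10.7.3.1 gave the deposited signal intensities (less background, and scaled per dye by 1 linear factor), the deposited log10 ratios, probe coordinates of build rn4, scan days and slides. The authors' deposited value table held log2 ratios for 91897 probes, equal to the rescaled log10 ratios to within 7.94e-07. It was an alternative source, since its array medians ran from -0.48 to -0.08.

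Log2 of processed Cy5 over Cy3 was taken for 93024 probes. The 1565 control spots and 183 outlier values marked by that software were left out. The filter kept 91599 probes, those whose input was well above background on 10 or more arrays. Each array was centred on its median, and runs of at least 3 probes starting at most 500 bases apart were averaged. Linear position used the modes of all regions and of the highest 15%. Limma 3.58.1 (R 4.3.3) fitted 3 groups over 20 arrays with Benjamini-Hochberg adjustment over 13556 regions at 0.05, and was tested on simulated data. The 6 scales were log2 ratio, linear position, loess, quantile, normexp with an offset of 50, and dim Cy5 signals raised to a floor. Other alternatives covered region size, filters, array weights, slide, scan day, replicate number and arrays left out.

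Among regions called with carcinomas 1 to 4 outside the normal range, those named were the 10 largest falls and 10 largest rises, and the 5 rises and 5 falls least shared with the other 12. Also named were regions gained or lost in all 4, and the 3 highest gains of each carcinoma. Regions called on all 6 scales, gained in at least 3, gained in no other carcinoma or lost in at least 2 of the 4, and neighbouring regions, were added after their values were seen. Gene names, gene lists and sequences were not used here. Summaries used Python 3.11.15, numpy 2.4.6 and pandas 2.3.3, and figures matplotlib 3.10.9.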

Additional observations from a re-analysis of the deposited data

Results flagged for a closer look

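Single arrays stood apart within a group of 4 in 4 of 178 sets of values searched, by the gap of the extreme array divided by the range of the group against Dixon's critical value. Chance alone marks about 5% of such sets. In the region on chromosome 13 from 49700153 to 49700646, carcinoma 3 had a log2 ratio of 0.0127 and the other 3 were at 0.37 to 0.38. In the region on chromosome 5 from 62900827 to 62901279, carcinoma 3 was at 2.81 and the other 3 at 1.52 to 1.68, while the other 12 carcinomas ran from 0.87 to 2.49. In the region on chromosome 7 from 20644295 to 20644674, normal gland 4 was at -0.20 and the other normal glands were at 0.02 to 0.06. Normal gland 4 had 3 regions under 0.2 that were over 0.5 in the other normal glands, and each of the others had 0.

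The region on chromosome 6 from 36513668 to 36514111 was higher in carcinomas 1 to 4 than in the other 12 by 0.65 on the log2 scale and past the limma threshold. The groups were formed by their counts of high regions, so this is a description. Its log2 ratio was -0.30, -0.27, -0.10 and -0.26 in normal glands, 0.19, 0.06, 0.32 and 0.56 in carcinomas 1 to 4, and -0.55 to 0.12 (median -0.43) in the other 12. Enriched signal was well above background at 2 of its 3 probes, and its difference from normal gland was -0.04 under loess.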

How the results depend on the processing

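On linear position, carcinomas 1 to 4 had 347 higher and 219 lower regions and the other 12 had 3648 and 879, with 317 and 163 in common. Loess gave 789 lower regions in the 4, 1205 in the 12 and 482 in common, and quantile normalization 1224, 1730 and 889. Normexp gave 276 higher regions in the 4 and 59 in common, and the floor on dim Cy5 signals 342 in common. Regions of at least 5 probes gave 931 higher and 441 in common. Array weights gave 2125 higher in the 4, 2477 in the 12 and 1311 in common, and an adjusted p under 0.01 gave 618, 695 and 234. Scan day as a block gave 622 higher and 321 in common, and leaving out carcinomas 1 and 2, chosen after seeing the data, 611 and 327. Within scan day 2 there were 348 higher and 1785 lower regions in carcinoma 4, 892 higher in the others and 141 and 1446 in common. Within scan day 3 carcinoma 3 had 3 higher and 44 lower, the others 337 higher, and 3 and 44 were in common; each such lone carcinoma is assumed to vary like the other groups. The cause of these shifts was not tested.

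Leaving out each normal gland and each of carcinomas 1 to 4 in turn (carcinomas 5 to 16 were not left out) gave 903 to 1344 higher and 2555 to 2973 lower regions in carcinomas 1 to 4, 1046 to 1389 and 2772 to 2960 in the other 12, and 348 to 683 and 2353 to 2701 in common. On all 6 scales, a test added after seeing the data, it gave 0 to 22 higher and 7 to 25 lower regions, scan day as a block gave 16 and 6, and leaving out carcinomas 1 and 2 gave 19 and 7. Gains ran from 123 to 192 in carcinoma 1, 14 to 39 in carcinoma 2, 67 to 100 in carcinoma 3 and 122 to 200 in carcinoma 4 as each normal gland was left out. With limits of 0.1 and 0.7 they were 4, 0, 9 and 4, and ran from 1 to 415 in the other 12. Counted as log2 ratios more than 1 above the highest normal gland, they were 297, 169, 84 and 213 in carcinomas 1 to 4. On that count the other 12 ran from 68 to 1064, and normal gland 1 had 1831 regions that far above the other normal glands. By neither of these counts were carcinomas 1 to 4 the 4 with the fewest gains.

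Some named regions changed direction. Under loess these were chromosome 1 from 82406633 (0.0538), chromosome 5 from 22709432 (0.0494), chromosome 6 from 36513668 (-0.0420), chromosome 8 from 10557338 (-0.0469) and from 47691757 (0.0696), chromosome 9 from 8528821 (0.0218) and from 41874301 (0.33), chromosome 13 from 49700153 (-0.0618) and chromosome 19 from 49889750 (0.0189). On linear position they were chromosome 3 from 92472268 (0.00366), chromosome 7 from 141685348 (0.00322), chromosome 8 from 47691757 (0.0146) and chromosome 9 from 41874301 (0.0171). Normexp turned chromosome 13 from 49700153 (-0.0297) and chromosome 20 from 5291837 (-0.16). With input well above background on all arrays, chromosome 2 from 166444573 (-0.17), chromosome 13 from 49700153 (-0.10) and chromosome 20 from 5291837 (-0.17) turned. Of all values of named regions under the alternatives, 1926 kept direction and call, 290 lost the call, 34 gained one and 23 moved.

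With the title number as a replicate block over normal glands 1 to 4 and carcinomas 1 to 4, 1069 regions were higher and 2668 lower. The labels do not say whether the same number marks a shared animal. With the group mean of each region taken out, same-numbered arrays correlated at 0.36, -0.16, 0.05 and -0.15. These 4 values cannot settle whether an animal is shared. Slide as a random block had a consensus correlation of -0.18. Cy5 was well above background at 70.0% to 84.6% of probes on carcinomas 1 to 4, and the dimmer probes limit the sizes given for regions near the low mode.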
